A study of Mus musculus with 12 samples.

Results

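Nodal is a secreted ligand of the TGF-β superfamily, and the 10 genes described here carry its signal: the ligands Nodal and Gdf3, the membrane-bound co-receptors Tdgf1 (Cripto) and Cfc1 (Cryptic), the activin receptors Acvr1b and Acvr2b, the effector Smad2, its DNA-binding partner Foxh1, and the secreted antagonists Lefty1 and Lefty2. Each was taken by its name in the deposited transcript annotation, among transcripts that match an Ensembl transcript or are a new isoform of one, which gave 1 locus per gene and 10 loci of the 80012 counted. The lowest level of any member in a library was 0.582 CPM (counts scaled to a common library size), above a floor of 3 counts, which was 0.00354 to 0.00467 CPM, and all 10 passed the filter on low values.

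The cells came from a mouse embryonic stem cell (ESC) line with a C57BL/6 background in which an EGFP cassette sits at the start site of the endogenous Eomes gene, so that every group shares that modified allele and that single line. ESC libraries (n = 4) were made on day 0 from undifferentiated cells grown in serum medium over mouse embryonic fibroblast feeders. The other libraries came from embryoid bodies grown in hanging drops and sorted by EGFP on day 3 into an Eomes-positive fraction (Eo+, n = 4) and an Eomes-negative fraction (Eo-, n = 4). Poly(A) RNA was sequenced, replicate numbers were 1, 2, 5 and 6 in each group, and 648413022 to 837308168 counts fell within loci per library.

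In the mouse embryo, Nodal binds a complex of type I and type II activin receptors together with a co-receptor of the EGF-CFC family, Smad2 and Smad3 are then phosphorylated, join Smad4 and act on target genes with partners such as Foxh1. Lefty proteins and Cerberus-like proteins are themselves targets of the pathway and block it from outside the cell. The pathway is known for its part in the primitive streak, from which mesendoderm arises, and for patterning the early body axes, and ESCs also make several of its components.

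Marker lists were read first, since fewer cells of a type and less RNA per cell cannot be told apart in bulk RNA. The 7 pluripotency genes, all with a locus, summed to 2960 to 3830 CPM in ESC, 1290 to 1650 CPM in Eo- and 459 to 807 CPM in Eo+. The 8 mesendoderm genes, with Eomes itself among them, summed to 94.4 to 293 CPM in ESC, 264 to 534 CPM in Eo- and 1860 to 3110 CPM in Eo+. Of 10 feeder fibroblast genes the sum was 102 to 263 CPM in ESC, 30.1 to 40.2 CPM in Eo- and 29.1 to 42.9 CPM in Eo+, with 4 of the 10 under a mean of 0.1 CPM in Eo+. From ESC, 6 of the 8 tested genes were called lower in Eo- and 7 in Eo+, beside 31.3% and 36.1% of all loci. Against this, Thy1 was called higher in Eo- than in ESC (means 21.3 and 14.1 CPM). Pdgfrb was called higher in Eo+ than in ESC (means 11.5 and 6.90 CPM). The sum of 10 visceral endoderm genes was 73.3 to 76.7, 72.1 to 84.5 and 102 to 186 CPM in ESC, Eo- and Eo+. In ESC and Eo- most of it came from the Trf locus, which is joined with other genes and held 78.6 to 98.9 CPM in Eo+. Without Trf the other 9 summed to 5.69 to 10.8, 6.45 to 18.9 and 12.4 to 106 CPM, and 3 of the 10, the defining markers Ttr, Afp and Apoa4, were under a mean of 0.1 CPM in ESC.

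The 5 neuroectoderm genes gave 49.5 to 97.0, 63.4 to 124 and 45.1 to 83.3 CPM in the same order of groups, overlapping throughout, most of it from Nes in ESC and nearly all of it in the fractions. The other 4 (Pax6, Sox1, Nkx6-3 and Neurog3) summed to 8.77 to 12.4, 1.33 to 1.96 and 0.13 to 0.172 CPM, were called lower in all 3 comparisons and were all under a mean of 0.1 CPM in Eo+. The 4 blood genes gave 1.62 to 2.24, 6.83 to 123 and 17.6 to 98.7 CPM, with Eo- replicate 1 at 123 CPM and the other Eo- libraries at 6.83 to 14.1 CPM. The pluripotency sum parted all 3 groups, the mesendoderm sum parted Eo+ from the others while ESC and Eo- overlapped, and the feeder sum parted ESC from both fractions. The visceral endoderm sum parted Eo+ from the others with the Trf locus and not without it. Their part in the differences of the pathway genes was not tested.

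Promoters are shown for Nodal, Tdgf1 and Cfc1, the ligand and the co-receptors whose levels parted between the fractions and for which the RefSeq table (GRCm38.p6, which has 5 of the 10 members) holds an entry. Each line gives the 250 bases before the annotated start, 5′ to 3′ on the gene's strand, at chr10:61417722-61417971 on the plus strand for Nodal, chr9:110946159-110946408 on the minus strand for Tdgf1 and chr1:34535398-34535647 on the plus strand for Cfc1. Capitals mark matches to GTCT or its reverse complement, the 4-base core of Smad binding sites.
Nodal: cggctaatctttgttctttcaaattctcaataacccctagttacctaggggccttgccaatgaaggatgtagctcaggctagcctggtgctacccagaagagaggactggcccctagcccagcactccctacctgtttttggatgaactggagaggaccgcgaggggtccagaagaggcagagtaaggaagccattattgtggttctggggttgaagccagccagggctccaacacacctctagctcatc
Tdgf1: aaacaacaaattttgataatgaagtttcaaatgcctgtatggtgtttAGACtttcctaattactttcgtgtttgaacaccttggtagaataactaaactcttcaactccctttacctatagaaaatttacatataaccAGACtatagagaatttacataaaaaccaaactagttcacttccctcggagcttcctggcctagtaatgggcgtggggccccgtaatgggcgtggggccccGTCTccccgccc
Cfc1: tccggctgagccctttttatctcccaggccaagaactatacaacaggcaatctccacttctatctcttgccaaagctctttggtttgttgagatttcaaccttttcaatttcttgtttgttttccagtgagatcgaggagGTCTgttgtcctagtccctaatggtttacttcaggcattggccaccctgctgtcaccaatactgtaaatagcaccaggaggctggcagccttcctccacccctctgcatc

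The GTCT core was present 3 times in the Tdgf1 window, 1 time in that of Cfc1 and 0 times in that of Nodal, against 82.9% of all 32851 promoter windows of this length with at least 1 match. On either strand, AATNCACA (a Foxh1 motif), CAGACA (a longer Smad motif that overlaps the core), ATGCAAAT (the octamer of Pou5f1), AGGTGTGA (a T-box motif) and TATAAA had 0 matches in the 3 windows, with 3.18%, 17.1%, 1.60%, 1.12% and 12.4% of all windows holding them. The authors' assembled loci began further upstream than these annotated starts, by 1807 bases for Nodal, 15631 for Tdgf1 and 18791 for Cfc1, so the windows show the annotated promoter and not every start in these cells.

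A locus was called when its adjusted p was at most 0.05 in limma with voom weights over all 17920 loci tested. From ESC to Eo+, 9 of the 10 members were called, 5 higher (Tdgf1, Cfc1, Acvr1b, Acvr2b and the Foxh1 locus) and 4 lower (Nodal, Gdf3, Lefty1 and the Lefty2 locus), beside 71.9% of all loci (35.8% higher and 36.1% lower). From ESC to Eo-, all 10 were called, 4 higher and 6 lower, beside 62.2% of all loci (30.9% higher and 31.3% lower). Between the sorted fractions all 10 were called, 8 higher in Eo+ and 2 lower (Nodal and Gdf3), beside 47.7% of all loci (23.0% higher and 24.7% lower). The groups did not overlap for 7, 10 and 10 members in these comparisons, beside 64.5%, 55.8% and 45.9% of all loci. A large share of all loci moved between these states, so the size and direction of each member carry the description more than the counts. The median log2 fold change of the members was 0.26, -0.32 and 0.51 in the 3 comparisons, against 0.00, 0.02 and -0.01 over all loci tested.

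Without Eo+ replicate 5, which stood apart for several genes, the counts were 8, 10 and 10, beside 12617, 11307 and 8530 of all 17920 loci. With a change of at least 2-fold required as well, 7 members were called from ESC to Eo+, 6 from ESC to Eo- and 3 (Tdgf1, Cfc1 and Gdf3) between the fractions, beside 38.1%, 28.3% and 21.2% of all loci. The comparisons share libraries with one another, so their values are given side by side and not as separate evidence.

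**Figure D1:**
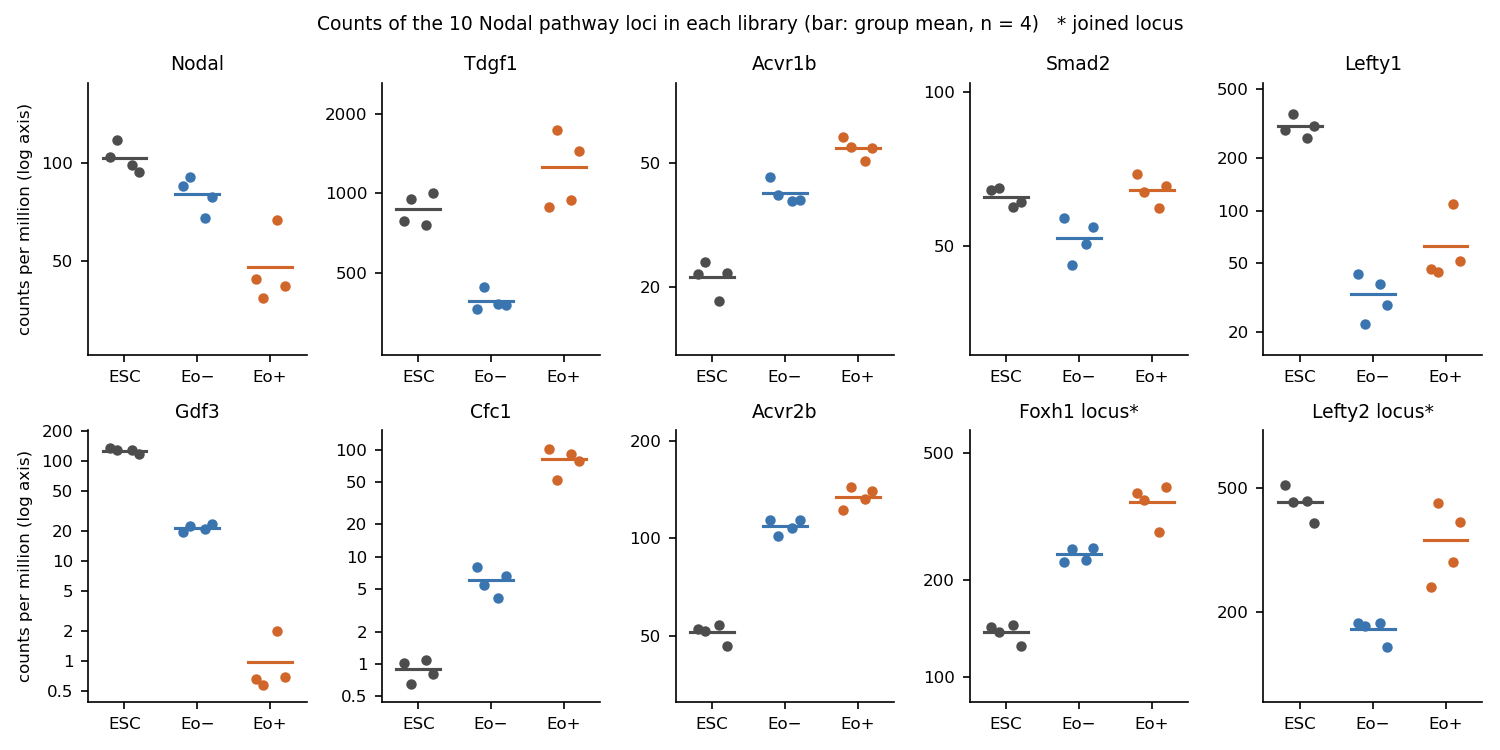
CPM on log axes for the 10 loci in the 12 libraries, in 10 panels with their own ranges; each point is 1 library and each bar a group mean of 4. Gdf3 falls stepwise from 117 or more in ESC to 2.00 or less in Eo+, Cfc1 climbs from 1.08 or less to 52.1 or more, and Tdgf1 and both Lefty loci are lowest in Eo-.

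The ligands fell on the way to both fractions. Nodal (chr10:61416165-61425376, plus strand) stood at 104, 117, 98.4 and 93.6 CPM in ESC replicates 1, 2, 5 and 6, at 85.1, 90.3, 67.7 and 78.8 CPM in Eo- and at 44.0, 38.6, 66.8 and 41.9 CPM in Eo+. The groups followed each other without overlap, although Eo+ replicate 5 lay just under the lowest Eo- library. Nodal was 2.21-fold lower in Eo+ than in ESC, with a log2 fold change of -1.14 (SE 0.145, adjusted p = 7.98e-06), and 1.72-fold lower in Eo+ than in Eo- (log2 fold change -0.78, SE 0.147, adjusted p = 0.000683). Its smaller difference between Eo- and ESC, -0.36 on the log2 scale (SE 0.138, adjusted p = 0.0347), rested on the setting. It missed the threshold with the replicate number as a block (adjusted p = 0.0506) and without ESC replicate 1, ESC replicate 2, Eo- replicate 5 or Eo- replicate 6 (adjusted p = 0.0645, 0.0994, 0.106 and 0.0674). It also missed it when libraries were scaled by their totals (adjusted p = 0.0930), in edgeR's quasi-likelihood test (adjusted p = 0.0550) and with no filter on low loci (adjusted p = 0.0720).

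Gdf3 (chr6:122605403-122610087, minus strand), a ligand related to Vg1 that also needs the EGF-CFC co-receptors, fell further than any other member from ESC to Eo+ and from Eo- to Eo+. The ESC libraries held 135, 128, 128 and 117 CPM, the Eo- libraries 19.5, 22.5, 20.8 and 23.4 CPM and the Eo+ libraries 0.663, 0.582, 2.00 and 0.699 CPM. All 3 groups were apart, and Eo+ replicate 5 stood well above the other Eo+ libraries. The log2 fold change was -2.57 from ESC to Eo- (SE 0.127, adjusted p = 6.25e-09), -7.22 from ESC to Eo+ (SE 0.247, adjusted p = 9.29e-11) and -4.65 from Eo- to Eo+ (SE 0.256, adjusted p = 6.25e-08). Without Eo+ replicate 5 the last 2 became -7.61 and -5.05. Gdf3 and the pluripotency list moved the same way: the list's sum was also highest in ESC and lowest in Eo+, with 807 CPM in Eo+ replicate 5 and 459 to 781 CPM in Eo+ replicates 1, 2 and 6.

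Per length, in FPKM (counts divided by library size and by exon length), Gdf3 was the more abundant ligand in ESC at 59.9 ± 3.53 (SD, n = 4) against 27.5 ± 2.67 for Nodal. The order was reversed in Eo-, at 10.1 ± 0.819 for Gdf3 and 21.5 ± 2.60 for Nodal, and in Eo+, at 0.464 ± 0.319 and 12.7 ± 3.44. Gdf3 thus made up 68.6% ± 1.78 of the summed FPKM of both ligands in ESC, 32.2% ± 3.03 in Eo- and 3.27% ± 1.17 in Eo+ (SD, n = 4). The 3 groups did not overlap, and each exact permutation test of 4 against 4 libraries gave p = 0.0286, the smallest it can give, and 0.0330 after adjustment over 15 tests of shares. A share within a library does not depend on how libraries are scaled, but it depends on the lengths used, and annotated exons make up 55.9% of the exon length of the Nodal locus and 100% of that of Gdf3. With all counts placed on the annotated exons, the share of Gdf3 was 54.9% ± 2.02, 21.0% ± 2.29 and 1.85% ± 0.678 in the same order of groups (SD, n = 4), again without overlap and with the same order of the ligands in each group.

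Both co-receptors were higher in Eo+ than in Eo-, opposite to the ligands. Tdgf1 (chr9:110939545-110961789, minus strand), the EGF-CFC protein Cripto, was the most abundant member per length in every group, above 99.4%, 98.5% and 99.6% of protein-coding loci by FPKM in ESC, Eo- and Eo+. Counts were 785, 954, 758 and 1000 CPM in ESC, 367, 442, 381 and 377 CPM in Eo- and 886, 1740, 946 and 1440 CPM in Eo+. Every Eo- library lay below every library of the other groups, whereas ESC and Eo+ overlapped. Tdgf1 was 3.07-fold higher in Eo+ than in Eo- (log2 fold change 1.62, SE 0.184, adjusted p = 1.37e-05) and 2.22-fold lower in Eo- than in ESC (log2 fold change -1.15, SE 0.186, adjusted p = 0.00012).

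Tdgf1 in Eo+ against ESC gave a log2 fold change of 0.47 (SE 0.180, adjusted p = 0.0300). That call was lost without ESC replicate 1, ESC replicate 5, Eo+ replicate 2 or Eo+ replicate 6, with adjusted p from 0.0756 to 0.0910, with only the 2 groups in the fit (adjusted p = 0.0695), with DESeq2 size factors (adjusted p = 0.0502) and with a filter of 1 CPM in 4 libraries (adjusted p = 0.0619). Of the 100-base windows of the Tdgf1 transcripts, 3.17% also occur in the pseudogene Tdgf1-ps1, so part of its reads could be left uncounted as not unique or counted at the pseudogene. The locus of that pseudogene, named for its shared sequence, held 40.9 to 56.1 CPM in ESC, 19.7 to 23.9 CPM in Eo- and 50.6 to 90.5 CPM in Eo+, the same order of groups as Tdgf1.

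Cfc1 (chr1:34516857-34547868, plus strand), the second EGF-CFC gene, rose more than any other member. ESC libraries held 1.01, 0.653, 1.08 and 0.796 CPM, Eo- libraries 8.03, 5.40, 4.15 and 6.65 CPM and Eo+ libraries 101, 52.1, 91.3 and 79.0 CPM. All groups were far apart. The rise was 6.79-fold from ESC to Eo- (log2 fold change 2.76, SE 0.415, adjusted p = 6.49e-05), 13.2-fold from Eo- to Eo+ (3.73, SE 0.256, adjusted p = 2.81e-07) and 90.0-fold from ESC to Eo+ (6.49, SE 0.368, adjusted p = 4.72e-09). The assembled locus is longer than the annotated gene, which holds 28.2% of its exon length, and its 3′ end overlaps Prss40 on the other strand, whose own locus reached at most 0.0754 CPM in any library with strand-aware counting.

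Despite this rise, Tdgf1 remained the main EGF-CFC transcript per length. It made up 99.9% ± 0.0204 of the summed FPKM of Tdgf1 and Cfc1 in ESC, 99.1% ± 0.279 in Eo- and 96.0% ± 1.99 in Eo+ (SD, n = 4), with 94.0% as the lowest library. The groups did not overlap (exact permutation test, p = 0.0286, the smallest possible, and 0.0330 adjusted). Much of the Cfc1 locus lies outside the annotated gene, and its FPKM depends on that assembled length. With all counts of both loci placed on the annotated exons, the share of Tdgf1 was 99.8% ± 0.0688, 97.1% ± 0.904 and 88.0% ± 5.64 (SD, n = 4), again without overlap.

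**Figure D2:**
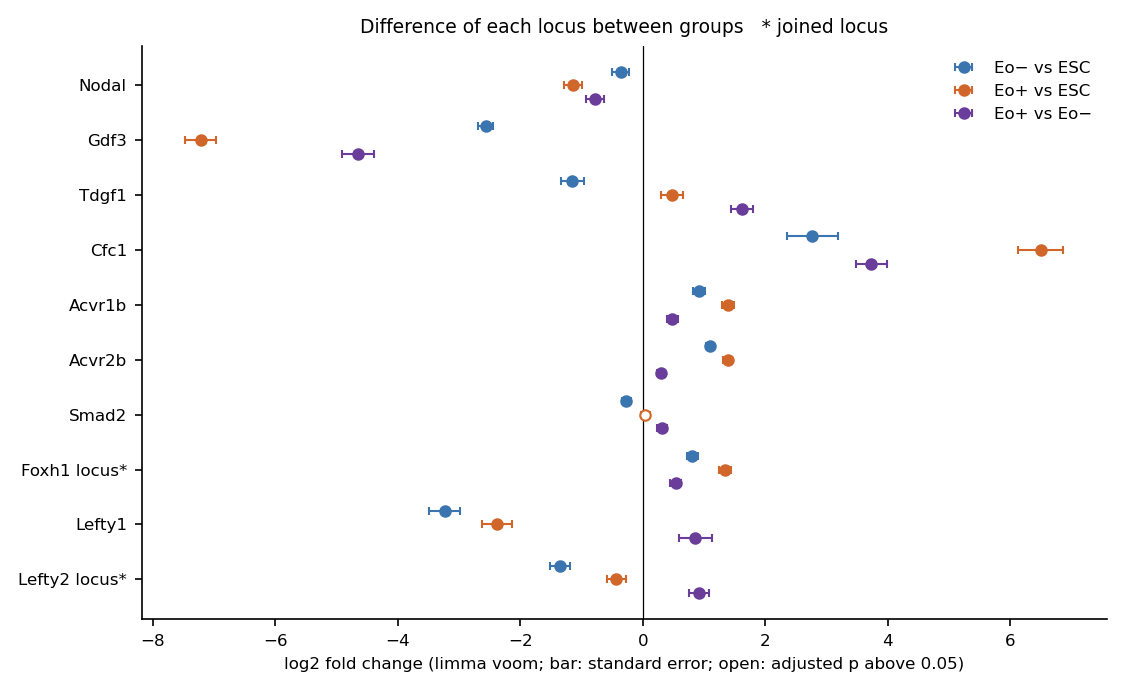
Log2 fold change of each locus from limma with voom weights in the 3 comparisons; bars are standard errors, and an open point has an adjusted p above 0.05. Cfc1 (6.49) and Gdf3 (-7.22) mark the ends of the range in Eo+ vs ESC, and Smad2 in that comparison is the only open point.

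The receptors rose in both fractions. Acvr1b (chr15:101174067-101213815, plus strand), the type I activin receptor ALK4, had 21.9, 24.0, 18.0 and 22.1 CPM in ESC, 45.3, 39.4, 37.9 and 38.2 CPM in Eo- and 60.7, 56.4, 50.9 and 56.3 CPM in Eo+. Acvr2b (chr9:119402083-119442310, plus strand), a type II receptor, had 52.6, 51.7, 54.1 and 46.6 CPM in ESC, 114, 102, 108 and 114 CPM in Eo- and 122, 144, 132 and 140 CPM in Eo+. For both genes ESC was lowest and Eo+ highest in every library, with no overlap. From ESC to Eo+ the log2 fold change was 1.39 for Acvr1b (SE 0.0968, adjusted p = 2.78e-08) and 1.39 for Acvr2b (SE 0.0717, adjusted p = 2.13e-09).

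Between the fractions the steps were smaller, 0.48 for Acvr1b (SE 0.0882, adjusted p = 0.000576) and 0.29 for Acvr2b (SE 0.0677, adjusted p = 0.00299) on the log2 scale. Neither reached 2-fold there, and Acvr1b was also under 2-fold from ESC to Eo-, at 0.91 (SE 0.0986, adjusted p = 3.76e-06), where Acvr2b rose by 1.10 (SE 0.0721, adjusted p = 5.25e-08).

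Acvr2a, the other type II activin receptor, was higher in Eo+ than in both other groups. It had 12.5 to 15.4 CPM in ESC, 13.2 to 15.6 CPM in Eo- and 23.6 to 32.7 CPM in Eo+, with a log2 fold change of 1.03 from ESC to Eo+ (SE 0.114, adjusted p = 2.03e-06), 0.92 from Eo- to Eo+ (SE 0.111, adjusted p = 2.20e-05) and 0.11 from ESC to Eo- (SE 0.122, adjusted p = 0.451). The share of Acvr2b in the summed FPKM of both type II receptors was therefore highest in Eo-, at 79.2% ± 0.774, against 65.8% ± 1.20 in ESC and 71.1% ± 2.27 in Eo+ (SD, n = 4). Those 3 groups of libraries did not overlap (exact permutation test, p = 0.0286, the smallest possible, and 0.0330 adjusted). Annotated exons make up 32.7% of the exon length of the Acvr2b locus and 100% of that of Acvr2a. With all counts placed on them, the share of Acvr2b was 92.1% ± 0.343 in Eo-, 85.5% ± 0.662 in ESC and 88.2% ± 1.13 in Eo+ (SD, n = 4), in the same order and without overlap.

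Among the 4 other receptors of the list that could be tested, all 4 rose from ESC to Eo+, 1 from ESC to Eo- and 3 from Eo- to Eo+, beside 35.8%, 30.9% and 23.0% of all loci called higher, and none was called lower in the 3 comparisons. Tgfbr3, the co-receptor betaglycan, rose by 2.57 on the log2 scale from ESC to Eo+ (SE 0.267, adjusted p = 1.12e-06). Tgfbr2, the type II TGF-β receptor, rose by 0.86 (SE 0.311, adjusted p = 0.0231). Acvr1c, which encodes the type I receptor ALK7, was under the level filter and was not tested.

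Inside the cell, Smad2 (on chromosome 18) stayed within a narrow range. Its counts were 64.3, 65.1, 59.6 and 60.9 CPM in ESC, 56.7, 46.1, 50.5 and 54.5 CPM in Eo- and 69.3, 63.7, 59.3 and 65.4 CPM in Eo+. Eo- was lowest, and ESC and Eo+ overlapped. The difference between Eo+ and ESC was 0.04 on the log2 scale (SE 0.0750, adjusted p = 0.621), with its sign depending on the scaling. Smad2 was 1.21-fold lower in Eo- than in ESC (log2 fold change -0.27, SE 0.0758, adjusted p = 0.00705) and 1.24-fold higher in Eo+ than in Eo- (0.31, SE 0.0758, adjusted p = 0.00405).

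Smad3, the other receptor-regulated Smad of this branch, had 12.9 to 14.5 CPM in ESC, 26.4 to 31.7 CPM in Eo- and 32.1 to 38.4 CPM in Eo+. It rose by 1.07 from ESC to Eo- (SE 0.0915, adjusted p = 4.65e-07) and by 1.38 from ESC to Eo+ (SE 0.0904, adjusted p = 1.62e-08) on the log2 scale. Smad2 thus held 72.8% ± 1.14 of the summed FPKM of Smad2 and Smad3 in ESC, and 51.3% ± 2.39 in Eo- and 51.4% ± 2.09 in Eo+ (SD, n = 4). Each fraction was apart from ESC (exact permutation test, p = 0.0286, the smallest possible, and 0.0330 adjusted), whereas the fractions overlapped and differed by 0.093 percentage points (exact permutation test, p = 0.943).

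Of the 4 genes listed as Smads and partners, Smad3 and the common mediator Smad4 were called higher in all 3 comparisons, beside 35.8%, 30.9% and 23.0% of all loci called higher in Eo+ vs ESC, Eo- vs ESC and Eo+ vs Eo-. Smad4 gained 1.14 on the log2 scale from ESC to Eo+ (SE 0.0637, adjusted p = 4.23e-09) and 0.38 from Eo- to Eo+ (SE 0.0616, adjusted p = 0.000239). Trim33, a ubiquitin ligase that binds Smads, was highest in Eo-, with means of 79.6, 113 and 82.9 CPM in ESC, Eo- and Eo+. It was 1.36-fold lower in Eo+ than in Eo- (log2 fold change -0.45, SE 0.0939, adjusted p = 0.00154) and higher in Eo- than in ESC (0.50, SE 0.0939, adjusted p = 0.000386). Between Eo+ and ESC it was not called (adjusted p = 0.611). Ep300, a histone acetyltransferase named here after its values were seen, was called in none of the 3 comparisons.

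The Foxh1 locus (chr15:76643395-76670664, minus strand) cannot be read as Foxh1 alone. The assembly joined this forkhead factor with its neighbour Cyhr1, and Foxh1 exons make up 7.39% of the exon length of the locus against 42.6% for Cyhr1. The joined locus had 143, 138, 145 and 125 CPM in ESC, 229, 251, 232 and 253 CPM in Eo- and 376, 356, 284 and 392 CPM in Eo+, without overlap. It rose by 0.81 from ESC to Eo- (SE 0.0927, adjusted p = 6.24e-06) and by 1.34 from ESC to Eo+ (SE 0.0919, adjusted p = 2.41e-08) on the log2 scale and was higher by 0.54 in Eo+ than in Eo- (SE 0.0896, adjusted p = 0.000284). These counts belong to the joined locus and cannot be split between the genes.

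Lefty1 (chr1:180934297-180938400, plus strand), a secreted inhibitor of Nodal, had its highest level in ESC, with 289, 360, 262 and 305 CPM. In Eo- it had 43.3, 22.2, 37.9 and 28.8 CPM and in Eo+ 46.1, 44.4, 109 and 51.1 CPM. ESC stood far above both fractions, and the lowest Eo+ library was just above the highest Eo- library. Lefty1 was 9.42-fold lower in Eo- than in ESC (log2 fold change -3.24, SE 0.254, adjusted p = 2.38e-07) and 5.20-fold lower in Eo+ than in ESC (-2.38, SE 0.239, adjusted p = 8.49e-07). The difference between the fractions, 0.86 (SE 0.273, adjusted p = 0.0192), fell to 0.56 without Eo+ replicate 5 (adjusted p = 0.0287) and missed the threshold without Eo- replicate 2 (0.68, adjusted p = 0.0676).

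Lefty2 (annotated at chr1:180893108-180899103, plus strand) lies on the same chromosome as Lefty1, and its assembled locus was joined with sequence outside the gene. Lefty2 exons make up 25.8% of the exon length of that locus, and its counts cannot be assigned to Lefty2 alone. It had 509, 449, 454 and 385 CPM in ESC, 184, 181, 185 and 154 CPM in Eo- and 240, 445, 290 and 389 CPM in Eo+. Eo- was lowest without overlap, as for Lefty1, and Eo+ reached into the range of ESC. The locus was 1.89-fold higher in Eo+ than in Eo- (log2 fold change 0.92, SE 0.160, adjusted p = 0.000403) and 2.55-fold lower in Eo- than in ESC (-1.35, SE 0.159, adjusted p = 7.51e-06).

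Between Eo+ and ESC the Lefty2 locus differed by -0.44 on the log2 scale (SE 0.155, adjusted p = 0.0217). That call was lost without ESC replicate 1, Eo+ replicate 1 or Eo+ replicate 5 (adjusted p = 0.0652, 0.0845 and 0.0715), where the difference was at its smallest at -0.27, and with no filter on low loci (adjusted p = 0.0513). Lefty1 and Lefty2 share few long stretches, 5.85% of the 100-base windows of Lefty1 and 3.86% of those of Lefty2. Lefty1 made up 72.6% ± 3.78 of the summed FPKM of the Lefty loci in ESC, 42.0% ± 6.69 in Eo- and 41.4% ± 13.8 in Eo+ (SD, n = 4), values that also contain reads from outside Lefty2 and use the length of the joined locus. With all counts of each locus placed on the annotated exons of Lefty1 and Lefty2, the other extreme, the shares were 50.1% ± 4.75, 21.6% ± 4.47 and 21.8% ± 10.1, so which of the genes is the more abundant in ESC cannot be told. By the first measure both fractions were apart from ESC (exact permutation test, p = 0.0286, the smallest possible, and 0.0330 adjusted) and overlapped with one another (exact permutation test, p = 0.971), and the same groups were apart by the second.

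**Figure D3:**
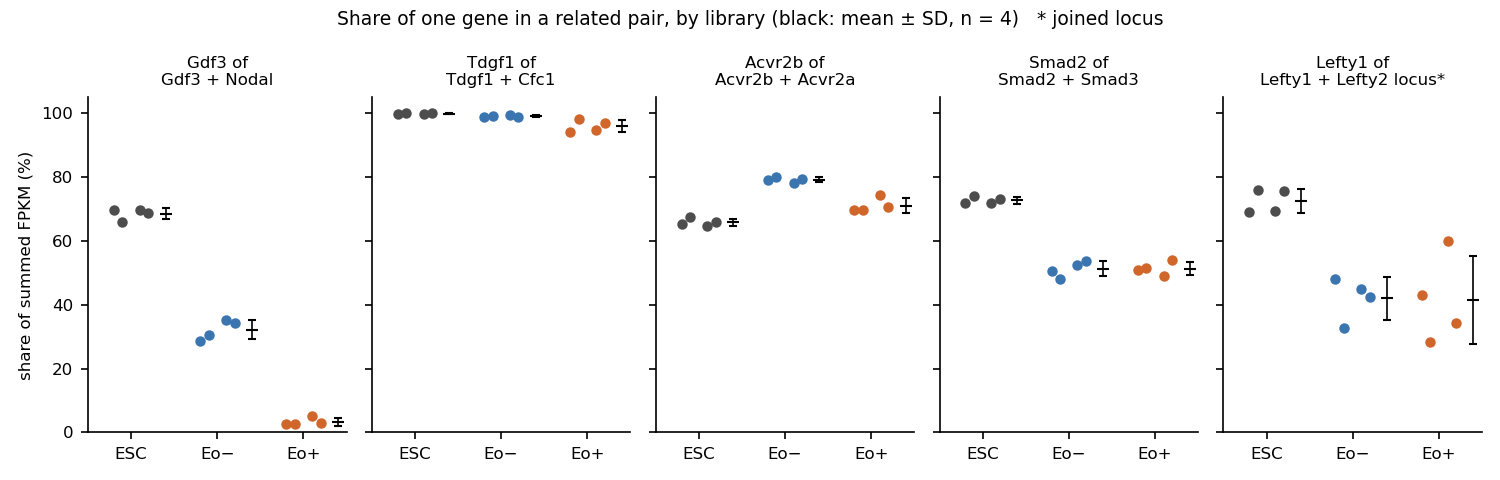
Share, in percent of summed FPKM, of the first gene of 5 related pairs in each of the 12 libraries; coloured points are libraries and black marks show mean ± SD of 4. Gdf3 drops from 68.6% to 3.27% of the ligand pair, Smad2 is at 51.3% and 51.4% in the fractions, and Tdgf1 stays at 94.0% or more of its pair.

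The libraries came from 4 differentiation sets, and Eo+ and Eo- libraries with the same replicate number deviated from their group means together, so the members were also compared within each number. Tdgf1 was higher in Eo+ in 4 of 4 replicate numbers, by 1.27, 1.97, 1.31 and 1.93 on the log2 scale for replicates 1, 2, 5 and 6, and Cfc1 by 3.65, 3.27, 4.46 and 3.57. Gdf3 was lower in all 4, by log2 ratios of -4.88, -5.27, -3.38 and -5.06. Nodal was lower by -0.95, -1.23, -0.02 and -0.91, so that in replicate 5 the fractions hardly differed. Lefty1 ranged from 0.09 in replicate 1 to 1.53 in replicate 5, and the Lefty2 locus from 0.38 to 1.34. The receptors were steadier, at 0.42 to 0.56 for Acvr1b and 0.10 to 0.49 for Acvr2b, and Smad2 lay between 0.23 and 0.47.

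**Figure D4:**
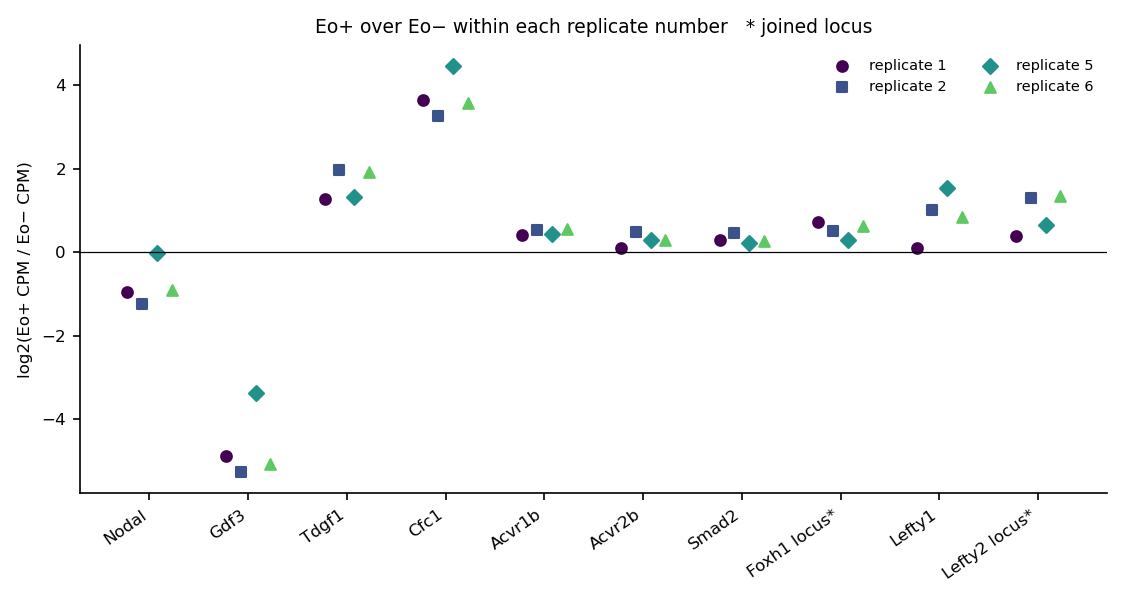
Log2 ratio of Eo+ to Eo- CPM for each locus within replicate numbers 1, 2, 5 and 6; each symbol is 1 replicate number and the line marks equal levels. Tdgf1 and Cfc1 are above the line and Gdf3 is below it in all 4, while Nodal in replicate 5 (-0.02) sits on it.

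The wider pathway was described by 43 further genes in 6 lists, of which 42 could be tested. From ESC to Eo+ 26 rose and 9 fell, from ESC to Eo- 17 rose and 7 fell, and from Eo- to Eo+ 23 rose and 6 fell, beside 35.8% and 36.1%, 30.9% and 31.3%, and 23.0% and 24.7% of all loci. The median log2 fold change of all 42 was 0.98, 0.38 and 0.59 in these comparisons, against 0.00, 0.02 and -0.01 over all loci tested. These counts and medians include 10 targets, most of them also mesendoderm markers, all called higher in both comparisons of Eo+.

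Among 8 other ligands and convertases, 3 rose and 4 fell from ESC to Eo+, beside 35.8% and 36.1% of all loci, so the counts themselves are close to the background. Inhba and Inhbb, which encode the activin β subunits, were nearly lost. Inhbb had 11.8 to 26.8 CPM in ESC, 0.129 to 0.166 CPM in Eo- and 0.243 to 0.418 CPM in Eo+, a log2 fold change of -5.65 from ESC to Eo+ (SE 0.360, adjusted p = 1.31e-08). Inhba had 16.2, 5.60, 25.3 and 4.04 CPM in ESC replicates 1, 2, 5 and 6 and at most 0.257 CPM elsewhere, a log2 fold change of -8.81 (SE 1.41, adjusted p = 6.75e-05).

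The feeder fibroblast sum was 263, 124, 212 and 102 CPM in the same ESC libraries, high in the 2 libraries where Inhba was high, and its part in the fall of Inhba was not tested. Tgfb1, the ligand TGF-β1, rose by 2.31 from ESC to Eo+ (SE 0.296, adjusted p = 8.47e-06) and by 1.95 from Eo- to Eo+ (SE 0.278, adjusted p = 8.44e-05) on the log2 scale.

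The convertases that cut the Nodal precursor went in opposite directions. Furin had a mean of 20.3 CPM in ESC, 38.4 in Eo- and 60.1 in Eo+ and rose by 1.56 from ESC to Eo+ (SE 0.153, adjusted p = 6.48e-07). Pcsk6 (PACE4) had 24.7 to 29.5 CPM in ESC, 10.8 to 12.9 CPM in Eo- and 3.85 to 6.22 CPM in Eo+ and changed by -2.41 (SE 0.136, adjusted p = 4.65e-09). Both genes were also called between the fractions, Furin higher by 0.63 (SE 0.138, adjusted p = 0.00198) and Pcsk6 lower with a log2 fold change of -1.19 (SE 0.147, adjusted p = 2.72e-05).

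While the Lefty loci fell from ESC, 4 of the 5 other extracellular antagonists rose in both fractions, beside 35.8% (Eo+) and 30.9% (Eo-) of all loci called higher. Cer1, the Cerberus-like inhibitor that binds Nodal, had 0.289, 0.252, 1.10 and 0.577 CPM in ESC, 15.5, 17.4, 13.0 and 18.6 CPM in Eo- and 185, 248, 392 and 220 CPM in Eo+. Its log2 fold change was 9.09 from ESC to Eo+ (SE 0.517, adjusted p = 4.88e-09) and 3.97 from Eo- to Eo+ (SE 0.248, adjusted p = 1.61e-07). Fst, which encodes the activin-binding follistatin, rose by 2.66 from ESC to Eo+ (SE 0.318, adjusted p = 4.59e-06). Inha, the inhibin α subunit, rose by 2.02 at a mean of 1.53 CPM in Eo+ (SE 0.191, adjusted p = 4.62e-07), and Fstl3, a follistatin relative, was the 1 that fell (log2 fold change -1.14, SE 0.144, adjusted p = 7.87e-06).

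Of 11 intracellular antagonists, 3 rose and 4 fell from ESC to Eo+, and 3 rose and 3 fell from Eo- to Eo+, close to the shares of all loci (35.8% higher and 36.1% lower, then 23.0% and 24.7%). From ESC to Eo-, 1 rose, 2 fell and 8 were not called, beside 30.9% of all loci higher and 31.3% lower. Bambi, a pseudoreceptor without a kinase, rose by 1.92 from ESC to Eo+ (SE 0.203, adjusted p = 1.36e-06). Smad7, the inhibitory Smad, was 2.01-fold lower in Eo+ than in ESC (log2 fold change -1.01, SE 0.114, adjusted p = 2.57e-06) and differed by -0.18 between the fractions (SE 0.120, adjusted p = 0.224). Skil, a Smad corepressor, and Dact2 were each lower in Eo+ than in ESC and in Eo-, with log2 fold changes from ESC of -0.38 (SE 0.0822, adjusted p = 0.000838) and -0.91 (SE 0.207, adjusted p = 0.00135).

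All 10 listed targets rose from ESC to Eo+ and from Eo- to Eo+, and 6 rose from ESC to Eo-, beside 35.8%, 23.0% and 30.9% of all loci called higher. Eomes is one of them and is the gene the cells were sorted by, so its rise was set by the sort. Most of the 10 targets are also genes of the mesendoderm list above, so those lists are not separate evidence. Lhx1, a homeobox gene of the organizer and anterior mesendoderm, had a mean of 5.24 CPM in ESC, 22.5 in Eo- and 579.9 in Eo+ and was 128-fold higher in Eo+ than in ESC (SE 0.434 on the log2 scale, adjusted p = 1.05e-08). Sox17 and Foxa2, transcription factors of the endoderm, rose by 6.21 (SE 0.445, adjusted p = 3.66e-08) and 5.23 (SE 0.313, adjusted p = 7.43e-09). From Eo- to Eo+ the leading targets were Lhx1 at 4.69 (SE 0.298, adjusted p = 1.70e-07), Mixl1 at 4.22 (SE 0.459, adjusted p = 9.66e-06) and Gsc at 4.14 (SE 0.334, adjusted p = 9.39e-07), and the last of these are homeobox genes of the mesendoderm. Several of these genes and Cer1 are also known from visceral endoderm. Its 10-gene list had 7 members higher in Eo+ than in Eo- and 0 lower, beside 23.0% and 24.7% of all loci. The fractions did not overlap for only 2 of these 10, beside 45.9% of all loci, and the part of that cell type was not tested.

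**Figure D5:**
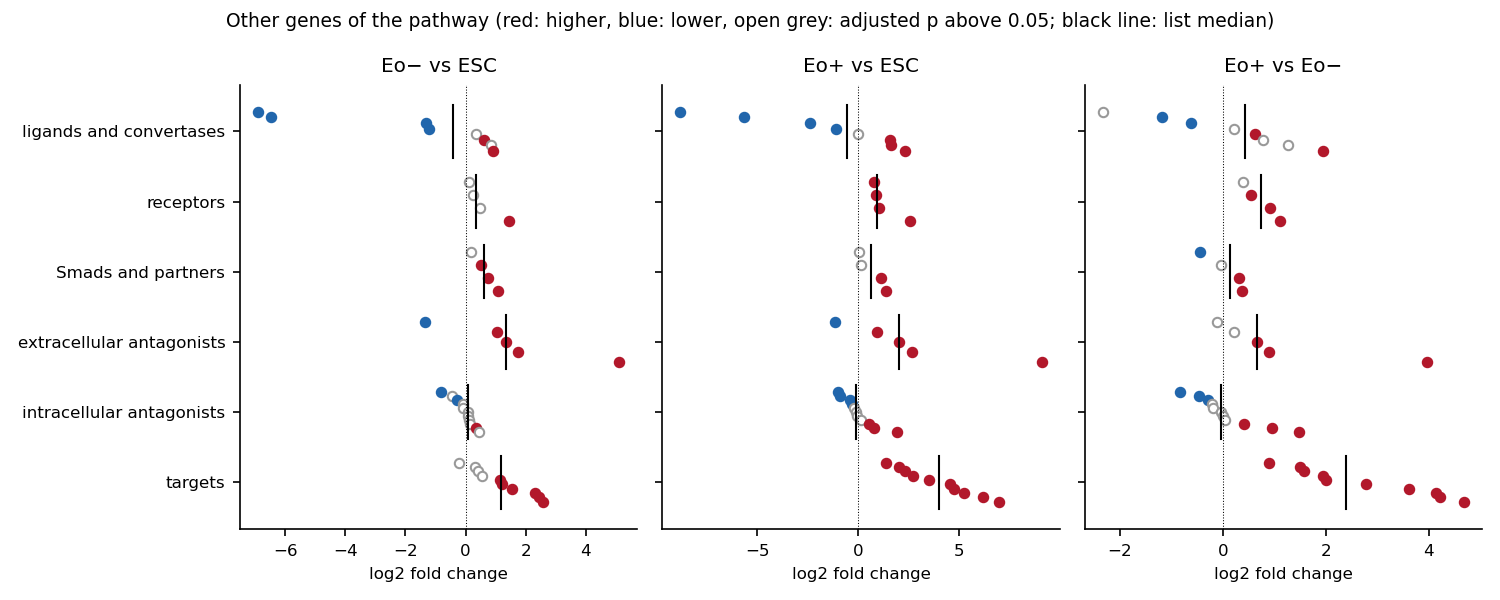
Log2 fold change of the 42 other pathway genes tested, by list, in the 3 comparisons, with a different horizontal range in each panel; each point is 1 gene, filled where called, and black lines are list medians. All 10 targets are filled and positive in both comparisons of Eo+, while the intracellular antagonists spread on either side of 0.

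Genes most alike in pattern were sought for Nodal, Tdgf1 and the Lefty loci among 12939 protein-coding loci, by Pearson correlation of log2(CPM + 0.1) over the 12 libraries, which share 3 group levels. Closest to Nodal were Plekha7 (r = 0.967), Coro6 (r = 0.967) and Aff1 (r = 0.963), which decline from ESC over Eo- to Eo+. Ckap2l (r = 0.969), Dlc1 (r = 0.960) and Upp1 (r = 0.953) were closest to Tdgf1, and Upp1 had means of 389 CPM in ESC, 80.5 in Eo- and 400.5 in Eo+. The correlation does not weigh the size of a change, and Ckap2l moved little, with means of 62.5, 53.3 and 71.2 CPM. Efhc2 (r = 0.972), Ak7 (r = 0.968) and Uso1 (r = 0.964) were closest to Lefty1, and Uso1 also moved little, with means of 93.6, 75.4 and 82.7 CPM in ESC, Eo- and Eo+. For the joined Lefty2 locus, 4921524J17Rik (r = 0.960) and Map3k6 (r = 0.958) are given, both lowest in Eo-. No test was made of these correlations.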

How the data were processed

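Per the study's methods and the labels, the authors mapped stranded, paired 100-base reads to mm10 (GRCm38) with STAR, assembled transcripts with Cufflinks and Cuffmerge 2.2.1 on the Ensembl annotation, and counted reads per locus with HTSeq 0.6.1 in strand-aware union mode. The STAR version is 2.0.4 in the submitters' processing notes, whereas the study's methods name another version. The deposited count table holds whole-number counts per locus without scaling; a second deposited table holds values that the authors scaled per library and was not used. No column belonged to another sample (0 columns).

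Loci were named from the deposited transcript annotation, and FPKM was computed from counts and summed exon length. The study names voom and limma for these libraries, which were run here with limma 3.58.1 (R 4.3.3), TMM scaling (edgeR 4.0.16), a model of group means over the 12 libraries without a block, and Benjamini-Hochberg adjustment over 17920 loci with a mean FPKM over 0.1 in at least 1 group that were protein-coding, annotated lncRNA or non-annotated multi-exon lncRNA (biotypes from GENCODE M21). All adjusted p-values are two-sided and from that fit unless another is named. On simulated counts for these 17920 loci, 85.7% of 2-fold and 100% of 4-fold changes were called, and 6.06% of the calls were false. Only 200 loci, each with a mean over 1 CPM, were changed there, in Eo+ alone. These shares hold for that setting and not for lower loci or for as many changes as in the data. Shares within pairs were tested by two-sided exact permutation. DESeq2 1.42.0 and edgeR's quasi-likelihood test were alternatives.

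Same-numbered Eo+ and Eo- libraries deviated together from their group means over loci (correlations 0.634, 0.311, 0.372 and 0.408 for replicates 1, 2, 5 and 6), whereas the correlations of ESC libraries with either fraction ran from -0.125 to 0.432, not all above 0.1. The study names 4 differentiation sets but not whether libraries of a set came from separate cultures, so p-values measure the spread between these libraries, which includes technical spread. HTSeq set aside 22.4% to 26.2% of alignments as not unique and 2.65% to 3.60% as outside loci; these entered no library size. Floors cover counting error only, as the reads carried no molecular identifiers.

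Members, lists and tests were chosen with earlier results of these data known. All 10 members are named; of each other pathway list all genes are counted, and at most 3 that rose most and 3 that fell most among called loci, by log2 fold change in Eo+ vs Eo- or Eo+ vs ESC, are named, with Acvr2a and Smad3 as partners in shares and, after their values were seen, Ep300 and the untested Acvr1c. Most alike are the 3 protein-coding loci with the highest correlation and a mean of at least 1 CPM in a group. Motifs were searched on both strands. Items withheld from this text, among them 1 of the most alike loci, are not reported here.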

Additional observations from a re-analysis of the deposited data

Results flagged for a closer look

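In groups of 4 libraries, a highest or lowest value was singled out where its gap to the nearest other value, as a share of the group's range, exceeded Dixon's 95% critical value. This held for 9 of 159 values of a pathway gene in a group, and chance alone gives about 1 in 20.

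Eo+ replicate 5 was the library in 4 of them. Lefty1 had 109 CPM in it, with 44.4 to 51.1 CPM in Eo+ replicates 1, 2 and 6, and Gdf3 had 2.00 CPM, with 0.582 to 0.699 CPM in those. Foxa2 had 163 CPM against 90.4 to 101 CPM, and Inhba 0.108 CPM against 0.0103 to 0.0156 CPM. In the same library the pluripotency list summed to 807 CPM against 459 to 781 CPM, and 24.0% of alignments were not unique against 22.4% to 22.5%; the part of these in the gene values was not tested.

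In Eo-, the Lefty2 locus was lowest in replicate 6 at 154 CPM against 181 to 185 CPM. Acvr2a was lowest in Eo- replicate 2, with 13.2 CPM against 15.5 to 15.6 CPM. Gsc was highest there, with 5.13 CPM against 2.70 to 2.88 CPM, as was Fstl3, with 1.16 CPM against 0.956 to 0.976 CPM. Tgfbr2 was highest in Eo- replicate 1, with 9.49 CPM against 3.63 to 4.31 CPM.

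Tdgf1 changed in opposite directions from ESC in the fractions, higher in Eo+ and lower in Eo-, and the test of the difference between the fractions gave a log2 fold change of 1.62 (limma, adjusted p = 1.37e-05). The call of the higher side depended on single libraries, on the scaling and on the filter, as stated for Eo+ against ESC.

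Low counts were seen on the strand opposite to 2 members. A locus antisense to Acvr1b had 45 to 411 counts per library, 0.307% to 1.13% of the Acvr1b count, and a locus antisense to Nodal had 7 to 63 counts, 0.0222% to 0.104% of the Nodal count.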

How the results depend on the processing

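Among the recomputed log2 fold changes of members, 617 kept their direction and their side of the threshold, and 20 kept their direction but lost the call. The 3 that changed sign were all Smad2 in Eo+ vs ESC, which was not called in any setting: -0.00375 with DESeq2 size factors (adjusted p = 0.967), -0.0023 with the DESeq2 Wald test (adjusted p = 0.982) and -0.0321 with a filter of 1 CPM in 4 libraries (adjusted p = 0.704). Requiring a 2-fold change left 6 members called from ESC to Eo- (2 higher, 4 lower), 3 between the fractions (2 higher, 1 lower) and 14 of 42 other pathway genes between the fractions (13 higher, 1 lower), beside 28.3% of all loci from ESC to Eo- and 21.2% between the fractions. From ESC to Eo+ it left 7 members (4 higher, 3 lower) and 27 other pathway genes (21 higher, 6 lower), beside 38.1% of all loci, and from ESC to Eo- 17 other pathway genes (12 higher, 5 lower). Leaving out each replicate in turn gave 7 to 9 members called in Eo+ vs ESC, 9 to 10 in Eo- vs ESC and 9 to 10 in Eo+ vs Eo-. Other pathway genes called were 32 to 36, 23 to 25 and 26 to 30 in that order. Beside these, 12347 to 12869, 10235 to 11307 and 7478 to 8850 of all 17920 loci were called, while 13 of 15 share comparisons stayed without overlap. The lost calls were Tdgf1 in Eo+ vs ESC in 7 settings (adjusted p from 0.0037 to 0.0910 over all settings), the Lefty2 locus in Eo+ vs ESC in 4 (0.00244 to 0.0845), Nodal in Eo- vs ESC in 8 (0.00458 to 0.106) and Lefty1 in Eo+ vs Eo- in 1 (0.00186 to 0.0676); beyond the samples left out, the cause was not tested.

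With the replicate number as a block over all 12 libraries, ESC included although its numbers did not pair, 9, 9 and 10 members were called in Eo+ vs ESC, Eo- vs ESC and Eo+ vs Eo-, and 35, 28 and 32 other pathway genes, beside 13402, 11839 and 9559 of all 17920 loci; among the members the block ended only the call of Nodal in Eo- vs ESC (adjusted p = 0.0506). In the deviations from group means, ESC replicates 1 and 2 matched Eo- replicates 1 and 2 best, while ESC replicates 5 and 6 matched replicates 6 and 5 of Eo-, a hint from the data; the numbers were left as labelled, and the values under the block depend on them. With the block and only the fractions, an alternative chosen after seeing the data, 10 members and 33 other genes were called, beside 10394 of all loci. Without the joined Lefty2 and Foxh1 loci, also chosen later, 7, 8 and 8 of 8 members were called, beside 71.9%, 62.2% and 47.7% of all loci. With annotated exon lengths for every gene of the pairs, chosen later as well, 13 share comparisons stayed without overlap. Depth did not limit the members, whose lowest level was 0.582 CPM.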

Other observations

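The Eo+ libraries differed among themselves in a way the groups do not describe. Tdgf1 was higher in Eo+ replicates 2 and 6 (1740 and 1440 CPM) than in replicates 1 and 5 (886 and 946 CPM), and the Lefty2 locus followed the same order (445 and 389 CPM against 240 and 290 CPM). The mesendoderm list, Eomes included, summed to 3110 and 2680 CPM in replicates 2 and 6 and to 1860 and 2020 CPM in replicates 1 and 5. Most of its genes followed that order, but Sox17 ran the other way, at 36.6 and 33.9 CPM against 54.0 and 58.4 CPM. Foxa2 was highest in replicate 5. Among the members, Cfc1 was lower in replicates 2 and 6 (52.1 and 79.0 CPM) than in replicates 1 and 5 (101 and 91.3 CPM). The coefficient of variation over the 4 Eo+ libraries was 32.5% for Tdgf1, 49.8% for Lefty1, 68.7% for Gdf3 and 26.9% for Nodal, and 7.10%, 7.06% and 6.48% for Acvr1b, Acvr2b and Smad2. Without Eo+ replicate 5 it was 31.9% for Tdgf1 and 7.39%, 9.24% and 6.57% for Lefty1, Gdf3 and Nodal, so the spread of these last 3 rested on that library. In ESC the same value was 13.8%, 13.6%, 5.89% and 9.71% for the first 4 genes and 11.7%, 6.31% and 4.23% for the others.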
